A study of Homo sapiens with 64 samples.

Results

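The 48 genes described here make up the machinery that copies DNA in S phase, together with E2F1 and E2F2, the transcription factors that switch much of it on. They were taken as a list by their known roles, and each was read from 1 array probe, the one with the highest mean signal on the 42 time-course arrays. All 48 had such a probe and all 48 passed the filter on dim probes, of 20046 genes with a probe and 13700 that passed. RNA levels in cultured human lymphoma lines were read from total RNA on Illumina single-channel arrays. The lines SUDHL2 and SUDHL6 were sampled after OTX015 for 1, 2 or 12 h, after the solvent DMSO for 1, 2 or 12 h, and not treated, with 3 arrays in each of the 14 groups. OTX015 is a small molecule that blocks the bromodomains of the BET proteins, which read acetylated histones at active genes; the labels give no dose. A separate panel of 22 untreated lines with 1 array each, SU-DHL-2 and SU-DHL-6 among them, gives the range of basal levels. No group carries a genetic change made for the study, and each cell line stands for 1 tumour.

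Replication starts in G1, when the origin recognition complex (ORC1, ORC6), CDC6 and CDT1 load the ring-shaped MCM2-7 helicase onto DNA. At the start of S phase CDC45, the GINS complex and MCM10 turn the loaded rings into working helicases, DNA polymerase alpha with its primase lays down primers, and polymerases epsilon and delta extend the leading and lagging strands while tethered to the clamp PCNA. Most of these genes are transcribed in late G1 and S phase from promoters bound by E2F factors, so their RNA levels are high in dividing cells and low in cells that have left the cycle.

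The E2F element is visible in the promoters of many of these genes. RefSeq promoter windows of build GRCh38.p14, running from 250 bases before to 50 after the start, were matched for 42 of the 48 members. Both strands were searched for the E2F words TTTGGCGC, TTTCCCGC, TTTCGCGC and TTTGCCGC, and 22 of the 42 windows (52.4%) held at least 1, against 555 of 10768 windows (5.15%) of the genes tested and 908 of 27305 (3.33%) of all windows of that length. Of the 29 matches, 19 began within 100 bases before the start, and 5 members held 2 or more. The other motifs searched on both strands were the MYC E-box CACGTG, in 11.9% of the member windows and 9.92% of the tested genes' windows; CCAAT, the NF-Y box, in 59.5% and 37.0%; and TTTGAA, the core of the CHR element of mitotic genes, in 2.38% and 10.8%. A match is a run of letters and not a measured binding site. Of the 22 members with a window that were called lower after 12 h of OTX015 in at least 1 line, 13 held an E2F word, and of the other 20 with a window, 9 did.

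The windows of 6 members are printed from 5′ to 3′ with the E2F word in capitals. They were chosen as the members with an E2F word and the largest called changes at 12 h in either line. The first 5 belong to genes that were lower in both lines after 12 h of OTX015: POLE2 (chr14:49688165-49688464, minus strand, the word on the opposite strand), CDT1 (chr16:88803539-88803838, plus strand, opposite strand), GINS3 (chr16:58392221-58392520, plus strand, opposite strand), UHRF1 (chr19:4909251-4909550, plus strand, opposite strand) and E2F2 (chr1:23531184-23531483, minus strand, same strand). The last, LIG1 (chr19:48170295-48170594, minus strand, same strand), was called higher after OTX015 in SUDHL2 and was not called in SUDHL6. TIPIN (-0.89 in SUDHL6) and MCM10 (-0.87 in SUDHL6) were also lower in both lines, but their windows held no E2F word and are not printed.
POLE2: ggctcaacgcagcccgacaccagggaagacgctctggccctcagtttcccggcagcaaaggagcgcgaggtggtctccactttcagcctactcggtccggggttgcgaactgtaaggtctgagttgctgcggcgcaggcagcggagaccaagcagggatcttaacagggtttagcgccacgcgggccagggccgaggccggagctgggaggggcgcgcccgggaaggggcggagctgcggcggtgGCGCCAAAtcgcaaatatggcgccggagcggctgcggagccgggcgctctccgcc
CDT1: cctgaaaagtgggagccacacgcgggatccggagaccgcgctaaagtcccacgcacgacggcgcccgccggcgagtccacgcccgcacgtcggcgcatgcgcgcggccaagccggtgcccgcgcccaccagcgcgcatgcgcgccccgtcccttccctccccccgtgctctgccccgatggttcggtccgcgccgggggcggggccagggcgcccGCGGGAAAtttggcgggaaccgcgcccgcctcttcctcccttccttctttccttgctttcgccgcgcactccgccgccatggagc
GINS3: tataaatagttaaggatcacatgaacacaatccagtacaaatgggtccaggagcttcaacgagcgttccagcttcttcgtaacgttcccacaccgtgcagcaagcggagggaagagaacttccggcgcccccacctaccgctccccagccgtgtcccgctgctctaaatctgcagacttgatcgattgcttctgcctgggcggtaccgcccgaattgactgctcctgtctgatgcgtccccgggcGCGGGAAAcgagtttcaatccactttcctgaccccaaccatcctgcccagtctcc
UHRF1: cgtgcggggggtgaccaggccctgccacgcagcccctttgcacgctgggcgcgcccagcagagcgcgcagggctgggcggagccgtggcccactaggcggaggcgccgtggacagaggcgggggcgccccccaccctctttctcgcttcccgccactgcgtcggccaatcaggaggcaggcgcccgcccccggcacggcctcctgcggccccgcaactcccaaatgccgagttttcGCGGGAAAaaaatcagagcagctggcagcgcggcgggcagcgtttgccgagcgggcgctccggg
E2F2: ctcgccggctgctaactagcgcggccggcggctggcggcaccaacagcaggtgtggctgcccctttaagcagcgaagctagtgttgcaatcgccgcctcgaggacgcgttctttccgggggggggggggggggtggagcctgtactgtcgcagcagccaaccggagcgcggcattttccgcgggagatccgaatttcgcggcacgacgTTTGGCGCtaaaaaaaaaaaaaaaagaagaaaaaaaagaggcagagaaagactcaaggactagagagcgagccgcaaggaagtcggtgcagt
LIG1: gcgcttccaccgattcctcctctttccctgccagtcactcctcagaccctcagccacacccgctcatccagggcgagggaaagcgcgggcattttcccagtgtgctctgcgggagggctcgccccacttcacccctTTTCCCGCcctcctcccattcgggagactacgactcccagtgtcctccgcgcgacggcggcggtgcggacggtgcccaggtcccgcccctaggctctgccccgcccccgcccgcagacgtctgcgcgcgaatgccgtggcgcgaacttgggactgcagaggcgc

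In POLE2 and GINS3 the word began 5 bases before the start, in UHRF1 14, in CDT1 35, in E2F2 42 and in LIG1 114. GINS3 and LIG1 carry the same TTTCCCGC word, and in SUDHL2 GINS3 was lower and LIG1 higher after 12 h of OTX015 than after DMSO.

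Replicate arrays correlated at 0.983 to 0.995 over the normalized levels of the 13700 genes tested, and the median raw signal per array was 88.55 to 115.5 on the time-course arrays. The labels do not say whether the 3 experiments of a group were separate cultures, so a p-value here reflects array-to-array spread alone, which may be technical. The B-cell markers MS4A1, CD79A, CD79B, CD22 and CD74 were detected on all 21 arrays of each line; PAX5 was detected on none. Of 8 T and NK cell markers, 0 to 3 were detected on an array of SUDHL2 and 0 to 2 on an array of SUDHL6. The myeloid gene FCGR3A was detected on all arrays of both lines, and C1QB and the epithelial gene EPCAM on all arrays of SUDHL2.

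In SUDHL6 the 7 arrays of the third experiment stood apart from the other 14. On the first principal component over genes, 25.0% of the variance, they lay at 12.0 to 16.5 and the others at -11.3 to -1.89. All 7 were on 1 slide. That slide also held the DMSO 2 h and 12 h arrays of experiment 2, which lay with the others, at -5.11 and -1.89. The members followed this split: in each SUDHL6 group 33 to 43 of the 48 were highest on the array of that experiment, where 33.3 to 38.5% of all genes were. Results on SUDHL6 are therefore given with and without it where that changes a call.

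**Figure D1:**
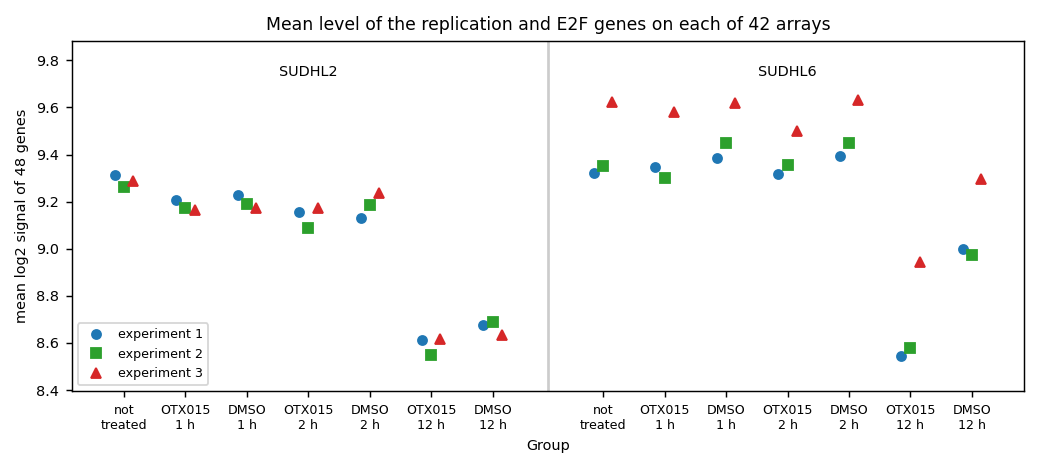
The mean normalized log2 level of the 48 replication and E2F genes on each of the 42 arrays of SUDHL2 and SUDHL6, by group, with experiments 1 to 3 as separate symbols. In SUDHL6 the third experiment is the highest in all 7 groups, and in both lines the arrays at 12 h lie below the not treated arrays.

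At 12 h the question is which parts of the replication machinery respond to BET inhibition. In SUDHL2 the members split in direction. The second subunit of polymerase epsilon (POLE2), the licensing factor CDT1, the GINS subunit GINS3, the helicase subunit MCM2 and the factor E2F2 were lower after OTX015 than after DMSO, while the ligase LIG1, the thymidine salvage kinase TK1 and the primase subunit PRIM1 were higher. By limma's adjusted p, 13 of the 48 fell and 10 rose, beside 33.3% of all 13700 genes called, 16.1% lower and 17.3% higher. The median log2 fold change was -0.04 over the members and 0.01 over all genes. In bulk RNA a smaller share of cells in S phase and less RNA per cell cannot be told apart. Of the markers of other cell types that were tested, 2 of 4 for T and NK cells, 1 of 5 for myeloid cells (C1QB, -0.88) and 1 of 3 for stromal and epithelial cells (EPCAM, -1.57) fell as well and none rose; none of them was called in SUDHL6. Among the tested B-cell markers, MS4A1 (-1.76) fell and CD79B (1.07) and CD74 (0.39) rose in SUDHL2. In SUDHL6 MS4A1 (-0.88), CD79A (-0.63) and CD22 (-1.02) fell and none rose. The part of these markers in the results was not tested.

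All values are normalized log2 levels on the arrays of experiments 1, 2 and 3, fold changes are differences of these, ± gives the standard error (SE, 3 against 3 arrays), and adjusted p-values are limma's over all 13700 genes. POLE2 read 7.87, 7.60 and 7.56 on the OTX015 arrays, against 8.49, 8.56 and 8.63 on the DMSO arrays, 1.85-fold lower (log2 fold change -0.88 ± 0.16, adjusted p = 1.6e-05). GINS3, part of the active helicase, read 7.17, 7.03 and 7.29 on the OTX015 arrays, against 7.81, 7.89 and 7.79 on the DMSO arrays (log2 fold change -0.67 ± 0.11, adjusted p = 2.3e-06). MCM2, a subunit of the helicase ring, read 8.51, 8.55 and 8.85 on the OTX015 arrays, against 9.34, 9.32 and 9.21 on the DMSO arrays (log2 fold change -0.66 ± 0.13, adjusted p = 8.3e-05). All 3 genes were lower on every OTX015 array than on any DMSO array. At 12 h in both lines, groups without overlap were a condition for naming the largest changes, so this is no further support. In SUDHL2 2914 of the 13700 genes lay lower in this way and 3124 higher, and 16 and 12 of the 48 members. CDT1, which brings MCM2-7 to origins, read 7.46, 7.33 and 7.40 on the OTX015 arrays, against 8.23, 8.01 and 7.89 on the DMSO arrays (log2 fold change -0.64 ± 0.16, adjusted p = 0.0015). TIPIN, which steadies the fork with TIMELESS, read 7.90, 8.14 and 8.15 on the OTX015 arrays, against 8.56, 8.71 and 8.76 on the DMSO arrays (log2 fold change -0.61 ± 0.15, adjusted p = 0.0014). MCM10, needed to start unwinding, read 8.58, 8.67 and 8.47 on the OTX015 arrays, against 9.05, 9.17 and 9.15 on the DMSO arrays (log2 fold change -0.55 ± 0.17, adjusted p = 0.012). These groups did not overlap either, and the 6 calls held under all alternatives tried.

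E2F2, an activator of genes of S phase entry, read 5.71, 5.30 and 5.74 on the OTX015 arrays, against 6.47, 6.38 and 6.12 on the DMSO arrays (log2 fold change -0.74 ± 0.19, adjusted p = 0.0015). It was a dim gene in SUDHL2, detected on 2 of the 3 OTX015 arrays, and the call ended without background correction (-0.35, adjusted p = 0.087) and on the authors' deposited log2 values (-0.35, adjusted p = 0.090). UHRF1, which carries DNA methylation through replication, read 8.79, 8.85 and 8.97 on the OTX015 arrays, against 9.36, 9.78 and 9.42 on the DMSO arrays (log2 fold change -0.65 ± 0.21, adjusted p = 0.013), and without the DMSO array of experiment 2 it read -0.52 (adjusted p = 0.091). RFC3, a clamp loader subunit, read 8.74, 8.70 and 8.69 on the OTX015 arrays, against 9.29, 9.40 and 9.64 on the DMSO arrays (log2 fold change -0.74 ± 0.16, adjusted p = 2.7e-04). RFC3 is uncertain, because a second detected probe rose (0.41, adjusted p = 0.020) while a further one read -0.84.

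Among the genes that rose, LIG1, which seals Okazaki fragments, read 8.12, 7.95 and 7.76 on the OTX015 arrays, against 7.19, 6.92 and 6.90 on the DMSO arrays, 1.92-fold higher (log2 fold change 0.94 ± 0.21, adjusted p = 3.6e-04). TK1 read 9.71, 9.17 and 9.24 on the OTX015 arrays, against 8.80, 8.55 and 8.50 on the DMSO arrays, 1.69-fold higher (log2 fold change 0.76 ± 0.16, adjusted p = 2.0e-04). TYMS, thymidylate synthase, read 9.47, 9.35 and 9.79 on the OTX015 arrays, against 8.97, 9.25 and 9.04 on the DMSO arrays (log2 fold change 0.45 ± 0.14, adjusted p = 0.0090), and without the OTX015 array of experiment 3 it read 0.32 (adjusted p = 0.10). The OTX015 arrays were above all DMSO arrays for these 3 genes. GINS2, another GINS subunit, read 9.61, 9.47 and 9.52 on the OTX015 arrays, against 9.06, 9.14 and 9.14 on the DMSO arrays (log2 fold change 0.42 ± 0.12, adjusted p = 0.0075). Scaling each array to its 75th percentile in place of quantile normalization moved the split to 16 lower and 3 higher, and of the 10 rises LIG1 and TK1 alone held under all alternatives.

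By role, 2 of the 6 MCM2-7 subunits fell, MCM2 and MCM4 (-0.37), and MCM5 (-0.24 ± 0.13, adjusted p = 0.18), MCM3 (-0.19), MCM6 (0.01) and MCM7 (-0.23) did not pass the test. A second detected probe of MCM3 was called lower (-0.49, adjusted p = 0.012 over all detected probes), and that of MCM4 was not called (-0.40, 0.071). Of the 4 licensing genes CDT1 fell, while CDC6 (-0.29 ± 0.16, adjusted p = 0.15), ORC1 (-0.08) and ORC6 (0.19) did not pass. Of the 6 genes of helicase activation MCM10 and GINS3 fell, GINS2 rose, and CDC45 (-0.01 ± 0.15, adjusted p = 0.99), GINS1 (-0.15) and GINS4 (0.35) did not pass. The polymerases divided inside their own complexes. In polymerase epsilon POLE2 fell and the catalytic POLE rose (0.61), in polymerase delta POLD2 (-0.39) and POLD3 (-0.57) fell and the catalytic POLD1 rose (0.40), and in polymerase alpha POLA2 (0.40) and PRIM1 (0.44) rose while POLA1 (-0.05) and PRIM2 (0.09) did not pass. Without the OTX015 array of experiment 1 the POLE value was 0.50 (adjusted p = 0.11), and without the DMSO array of experiment 3 it was 0.42 (adjusted p = 0.18). POLD3 was -0.39 (adjusted p = 0.11) without the OTX015 array of experiment 2, and POLD1 (adjusted p = 0.044) lost its call when any single array was left out.

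The clamp PCNA read 0.05 (adjusted p = 0.79), RFC5 rose (0.40), and RFC2 (0.22) and RFC4 (-0.33) did not pass. A second detected probe of RFC4 was called lower (-0.49, adjusted p = 0.0060 over all detected probes). Of the single-strand binding proteins RPA3 rose (0.36), with RPA1 at 0.23 and RPA2 at 0.04. FEN1, which trims Okazaki fragment flaps, was at 0.00. Ribonucleotide reductase showed no call, RRM1 at -0.03 and RRM2 at -0.07 ± 0.21. Of the chromatin genes the histone chaperone subunit CHAF1A fell with UHRF1 (-0.41), and CHAF1B (0.03) and the histone mRNA binding protein SLBP (0.07) did not pass. Neither the checkpoint adaptor CLSPN (0.04), DTL (-0.42), which targets CDT1 for destruction, nor E2F1 (-0.13 ± 0.19, adjusted p = 0.68) passed. CLSPN was at the limit of detection here, seen on 0 of 3 OTX015 arrays and 1 of 3 DMSO arrays.

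In SUDHL6 the response at 12 h ran almost entirely downward. POLE2, CDT1, the helicase subunit MCM5 and GINS3 were 1.96-fold to 2.68-fold lower after OTX015 than after DMSO, and 5 of the 6 MCM2-7 subunits fell. Of the 48 members 24 fell and 1, SLBP, rose, beside 26.2% of all genes called, 12.7% lower and 13.6% higher. The median log2 fold change was -0.41 over the members and 0.02 over all genes, and 40 of the 48 values were below 0. With the third experiment left out, 24 fell and 0 rose.

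POLE2 read 7.20, 7.08 and 8.11 on the OTX015 arrays, against 8.91, 8.71 and 9.04 on the DMSO arrays, 2.68-fold lower (log2 fold change -1.42 ± 0.16, adjusted p = 2.2e-09). CDT1 read 7.38, 7.58 and 7.95 on the OTX015 arrays, against 8.61, 8.74 and 8.93 on the DMSO arrays, 2.18-fold lower (log2 fold change -1.12 ± 0.16, adjusted p = 6.3e-07). MCM5 read 8.59, 8.58 and 9.05 on the OTX015 arrays, against 9.78, 9.80 and 10.02 on the DMSO arrays, 2.18-fold lower (log2 fold change -1.12 ± 0.13, adjusted p = 1.3e-08). For each of these the highest OTX015 array was that of the third experiment, and it still lay below all DMSO arrays. GINS3 read 8.21, 8.26 and 8.41 on the OTX015 arrays, against 9.29, 9.17 and 9.33 on the DMSO arrays, 1.96-fold lower (log2 fold change -0.97 ± 0.11, adjusted p = 1.4e-09). MCM2 read 8.23, 8.36 and 8.35 on the OTX015 arrays, against 8.81, 8.99 and 9.24 on the DMSO arrays (log2 fold change -0.70 ± 0.13, adjusted p = 4.9e-05). GINS2 read 9.30, 9.31 and 9.68 on the OTX015 arrays, against 10.14, 9.93 and 10.19 on the DMSO arrays (log2 fold change -0.66 ± 0.12, adjusted p = 6.6e-05). Their groups did not overlap, and all 6 calls held under all alternatives.

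CDC45, which rides with MCM2-7 and GINS in the active helicase, read 7.98, 8.25 and 8.54 on the OTX015 arrays, against 8.80, 8.79 and 9.40 on the DMSO arrays (log2 fold change -0.74 ± 0.15, adjusted p = 2.1e-04). MCM10 read 8.13, 8.12 and 9.12 on the OTX015 arrays, against 9.14, 9.23 and 9.61 on the DMSO arrays (log2 fold change -0.87 ± 0.17, adjusted p = 1.5e-04). TIPIN read 7.29, 7.44 and 7.63 on the OTX015 arrays, against 8.57, 8.04 and 8.41 on the DMSO arrays (log2 fold change -0.89 ± 0.15, adjusted p = 1.4e-05). These groups were apart, though for MCM10 the gap was small because its OTX015 array of experiment 3 lay near the DMSO arrays of the other experiments. POLD2, which joins the subunits of polymerase delta, read 8.75, 8.99 and 8.98 on the OTX015 arrays, against 9.66, 9.60 and 9.68 on the DMSO arrays (log2 fold change -0.74 ± 0.13, adjusted p = 2.7e-05). RFC3 read 7.89, 8.17 and 8.52 on the OTX015 arrays, against 8.97, 8.60 and 9.06 on the DMSO arrays (log2 fold change -0.68 ± 0.16, adjusted p = 9.5e-04), and another of its detected probes read 0.02.

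E2F2 read 8.59, 8.55 and 9.41 on the OTX015 arrays, against 9.32, 9.47 and 10.02 on the DMSO arrays (log2 fold change -0.75 ± 0.19, adjusted p = 0.0017). UHRF1 read 8.92, 8.86 and 9.71 on the OTX015 arrays, against 9.42, 10.02 and 10.66 on the DMSO arrays (log2 fold change -0.87 ± 0.21, adjusted p = 0.0012), and -0.56 (adjusted p = 0.045) without the DMSO array of experiment 3. Both genes overlapped between the groups, and in both the OTX015 array was below the DMSO array of the same experiment in all 3 experiments. E2F1 read 6.73, 6.65 and 6.85 on the OTX015 arrays, against 7.37, 6.93 and 7.21 on the DMSO arrays, groups that did not overlap but whose difference missed the threshold (log2 fold change -0.43 ± 0.19, adjusted p = 0.10). SLBP, the 1 member that rose, read 10.67, 10.52 and 10.78 on the OTX015 arrays, against 10.50, 9.99 and 10.37 on the DMSO arrays (log2 fold change 0.37 ± 0.13, adjusted p = 0.032), and without the third experiment its call was lost (0.35, adjusted p = 0.095).

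By role, MCM3 (-0.42), MCM6 (-0.41) and MCM7 (-0.46) fell with MCM2 and MCM5, and MCM4 (-0.35) did not pass. A second detected probe of MCM4 was called lower (-0.65, adjusted p = 0.0032 over all detected probes). ORC1 (-0.49) fell with CDT1, while CDC6 (-0.28 ± 0.16, adjusted p = 0.20) and ORC6 (-0.04) did not pass. In helicase activation 4 of 6 fell, with GINS1 at -0.03 and GINS4 at 0.10. Of 9 polymerase and primase genes 4 fell, POLE2, POLD2, POLD3 (-0.54) and POLA1 (-0.57), and POLD1 (-0.32), PRIM2 (-0.26), PRIM1 (-0.21), POLA2 (-0.11) and POLE (-0.08) did not pass. Clamp loader subunits RFC2 (-0.57), RFC3 and RFC4 (-0.55) fell, with RFC5 at 0.04 and PCNA at -0.03 (adjusted p = 0.90). FEN1 (-0.45), CHAF1A (-0.53) and DTL (-0.55) fell too.

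The genes of nucleotide supply did not pass in SUDHL6, RRM1 at -0.18, RRM2 at -0.21, TYMS at -0.30 ± 0.14 and TK1 at 0.07. LIG1 read 8.16, 8.29 and 8.64 on the OTX015 arrays, against 7.93, 8.25 and 8.69 on the DMSO arrays (log2 fold change 0.07 ± 0.21, adjusted p = 0.85). None of the 3 single-strand binding genes passed (RPA1 0.00, RPA2 -0.09, RPA3 0.07), nor did CHAF1B (-0.05) or CLSPN (0.04). Without the DMSO array of experiment 3 the calls fell to 17, RFC2 reading -0.35 (adjusted p = 0.098). With the experiment number as a block TYMS (adjusted p = 0.039) and MCM4 (-0.35, adjusted p = 0.035) were called lower too. MCM7, POLA1 and POLD3 lost their calls when all detected probes of a gene were averaged (-0.28, -0.28 and -0.19).

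**Figure D2:**
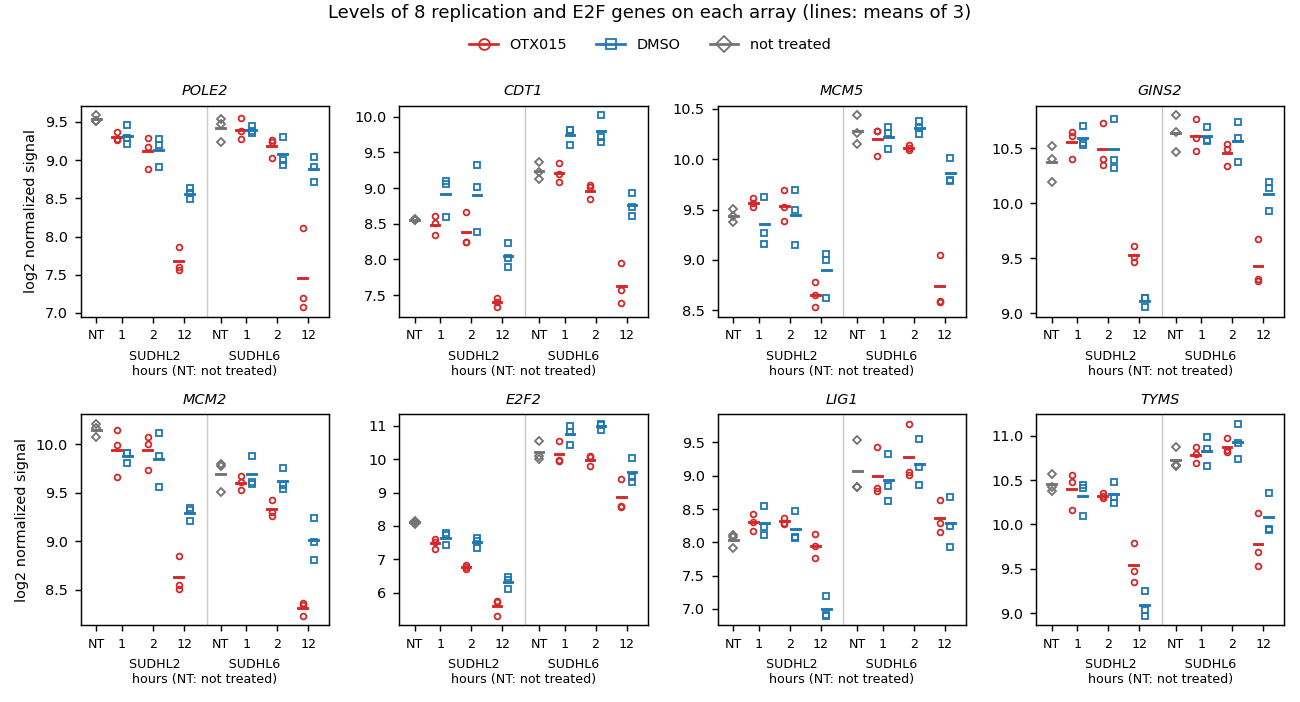
Normalized log2 levels of POLE2, CDT1, MCM5, GINS2, MCM2, E2F2, LIG1 and TYMS on each array of SUDHL2 and SUDHL6: not treated, then 1, 2 and 12 h with OTX015 left of DMSO, with a line at each group's mean of 3 arrays. In SUDHL6 at 12 h POLE2 lies at 7.08 to 8.11 after OTX015 and 8.71 to 9.04 after DMSO, while in SUDHL2 at 12 h LIG1 lies at 7.76 to 8.12 after OTX015 and 6.90 to 7.19 after DMSO.

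Whether both lines responded alike at 12 h was tested as the difference between their fold changes, SUDHL2 minus SUDHL6. For 9 of the 48 members the response was higher in SUDHL2 and for 0 it was lower, beside 12% of all genes called, 6.01% each way, and the median difference was 0.29 over the members and -0.01 over all genes. The 9 were GINS2 (1.07 ± 0.18, adjusted p = 2.2e-05), MCM5 (0.88 ± 0.19, adjusted p = 9.8e-04), RFC2 (0.78 ± 0.22, adjusted p = 0.011), TYMS (0.75 ± 0.19, adjusted p = 0.0069), CDC45 (0.74 ± 0.22, adjusted p = 0.018), POLD1 (0.72 ± 0.22, adjusted p = 0.026), PRIM1 (0.65 ± 0.18, adjusted p = 0.013), TK1 (0.68 ± 0.23, adjusted p = 0.039) and LIG1 (0.87 ± 0.29, adjusted p = 0.045). For GINS2 the fold change was 0.42 in SUDHL2 and -0.66 in SUDHL6, for MCM5 -0.24 and -1.12, and for CDC45 -0.01 and -0.74. With 75th percentile scaling only GINS2 and MCM5 were called, and these were the 2 that held under every alternative tried. Without the DMSO array of experiment 3 in SUDHL6 4 were called, without the OTX015 array of that experiment 15, and without the whole experiment 14.

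At 12 h 12 members were called lower in both lines: MCM2, CDT1, MCM10, GINS3, POLE2, POLD2, POLD3, RFC3, CHAF1A, UHRF1, TIPIN and E2F2. They were 92.3% of the 13 lower calls in SUDHL2 and 50% of the 24 in SUDHL6, where over all genes the 949 shared lower calls were 43.1% and 54.7%. MCM4 was called lower in SUDHL2 only and 11 members in SUDHL6 only. These counts rest on 1 probe per gene. A second detected probe of MCM4 was called lower in SUDHL6 (-0.65, adjusted p = 0.0032 over all detected probes). In SUDHL2 second probes of MCM3 (-0.49, 0.012) and RFC4 (-0.49, 0.0060) were called lower, and the further detected probes of MCM7, POLA1, RFC2 and FEN1 were not called. GINS2 alone was called in opposite directions, and 13 members were called in neither line. The rise of GINS2 in SUDHL2 did not hold under all alternatives, while its difference between lines did. A call in 1 line and not in the other does not show a difference, and of the 11, only MCM5, CDC45 and RFC2 passed the test between lines.

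**Figure D3:**
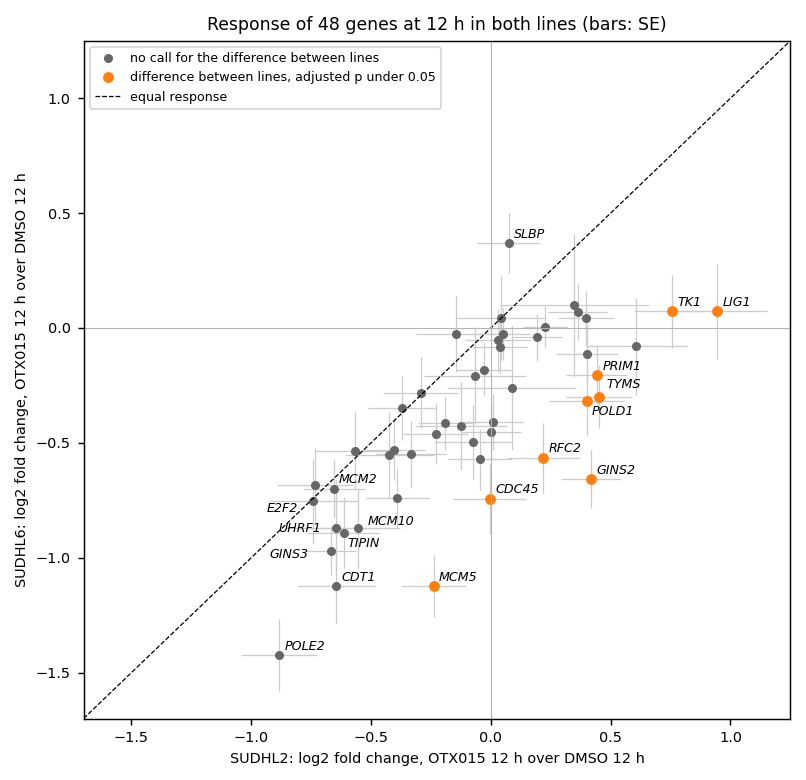
The log2 fold change of each of the 48 genes at 12 h, OTX015 against DMSO, in SUDHL2 on the x axis and in SUDHL6 on the y axis, with SE bars. POLE2 lies lowest at -0.88 and -1.42, and the 9 genes in orange, for which the difference between lines was called, lie below the diagonal.

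Early in treatment few members were called, none at 1 h and E2F2, CDT1, CHAF1A and GINS3 at 2 h. At 1 h limma called 0 of 48 in SUDHL2, where 0.19% of all genes were called, and 0 of 48 in SUDHL6, where 0.788% were. At an unadjusted p under 0.05 there were 2 members in SUDHL2 and 4 in SUDHL6. The lowest values at 1 h were CDT1 in SUDHL2 (-0.43 ± 0.16, adjusted p = 0.86) and E2F2 in SUDHL6 (-0.58 ± 0.19, adjusted p = 0.20). E2F2 was called at 1 h with the experiment number as a block (adjusted p = 0.012), with the slide as a block (0.028) and without the third experiment (-0.65, adjusted p = 0.032).

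At 2 h 2 members fell in SUDHL2 and 0 rose, beside 3.21% of all genes called, 2.41% lower and 0.803% higher, and 4 fell in SUDHL6 and 0 rose, beside 5.87%, 3.17% lower and 2.7% higher. In SUDHL2 GINS3 read 7.80, 7.77 and 7.82 on the OTX015 arrays, against 8.15, 8.43 and 8.34 on the DMSO arrays (log2 fold change -0.51 ± 0.11, adjusted p = 0.0017), and E2F2 read 6.72, 6.82 and 6.75 on the OTX015 arrays, against 7.33, 7.54 and 7.64 on the DMSO arrays (log2 fold change -0.74 ± 0.19, adjusted p = 0.012). Neither overlapped, but E2F2 lost its call without the OTX015 array of experiment 1 (adjusted p = 0.061) and without the DMSO array of experiment 2 (0.051) or 3 (0.075), while GINS3 held throughout. In SUDHL6 E2F2 read 9.78, 10.09 and 10.07 on the OTX015 arrays, against 10.88, 11.03 and 11.05 on the DMSO arrays (log2 fold change -1.01 ± 0.19, adjusted p = 2.1e-04). CDT1 read 9.01, 9.04 and 8.84 on the OTX015 arrays, against 9.65, 10.02 and 9.72 on the DMSO arrays (log2 fold change -0.83 ± 0.16, adjusted p = 4.7e-04). CHAF1A read 6.94, 7.03 and 7.05 on the OTX015 arrays, against 7.54, 7.54 and 7.63 on the DMSO arrays (log2 fold change -0.57 ± 0.13, adjusted p = 0.0042). These 3 kept their calls under every alternative, and all OTX015 arrays were below all DMSO arrays. Of the 13700 genes tested, 1142 lay below in this way in SUDHL6 at 2 h and 1401 above, and of the members 9 and 2. In SUDHL2 at 2 h it was 1191 and 954 of all genes, and 3 and 0 of the members. GINS3 read 9.12, 9.24 and 8.93 on the OTX015 arrays, against 9.34, 9.37 and 9.61 on the DMSO arrays (log2 fold change -0.34 ± 0.11, adjusted p = 0.042), and without the third experiment it read -0.17 (adjusted p = 0.53).

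No member's response differed between the lines at 1 or 2 h by limma, where 0.0438% and 0.635% of all genes were called; 1 member at each hour had an unadjusted p under 0.05. The fold change of POLE2 was -0.01 at 2 h and -0.88 at 12 h in SUDHL2 (difference -0.88, adjusted p = 0.0032), and 0.10 at 2 h and -1.42 at 12 h in SUDHL6 (difference -1.52, adjusted p = 3.1e-06). In SUDHL2 5 members differed between these hours, 2 upward and 3 downward, beside 20.1% of all genes, 10.2% upward and 9.96% downward, and in SUDHL6 10 did, all downward, beside 12.5%, 6.96% downward and 5.53% upward. The fold change of CDT1 was -0.83 at 2 h and -1.12 at 12 h in SUDHL6, and that of E2F2 -1.01 and -0.75, neither of which differed between the hours by this test.

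**Figure D4:**
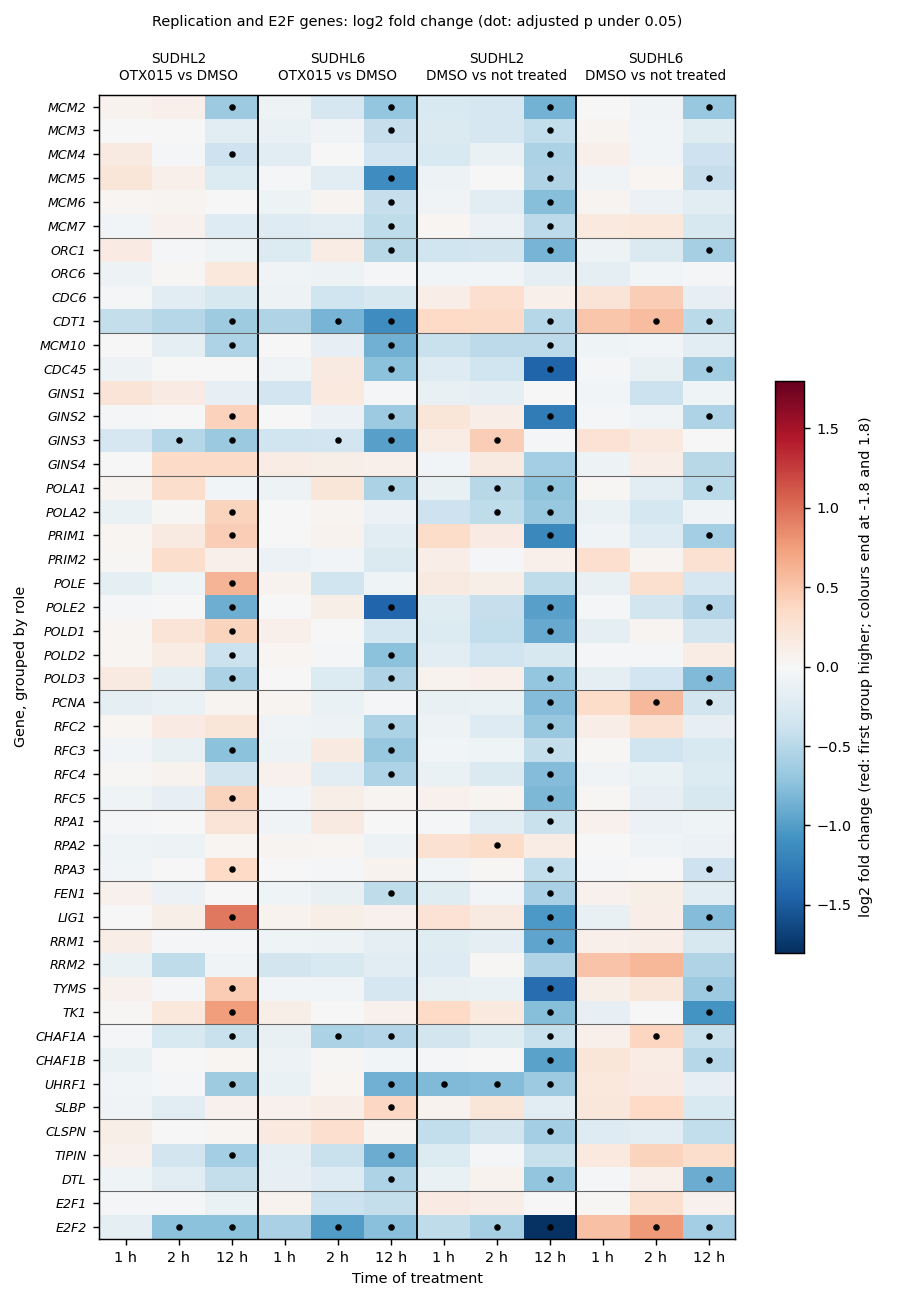
Log2 fold change of the 48 genes (grouped by role from top to bottom) in 12 comparisons: OTX015 against DMSO at 1, 2 and 12 h in SUDHL2 and SUDHL6, then DMSO against not treated at the same hours. Red is higher, blue lower, colours stop at 1.8 in either direction, and a dot marks an adjusted p under 0.05; in SUDHL6 at 12 h 24 of 25 dots are on lower values, and in SUDHL2 after 12 h of DMSO all 35 are.

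The DMSO arrays at 12 h were themselves far from the not treated arrays. The calls among the members all ran downward: in SUDHL2 35 of 48 fell and 0 rose, beside 22.3% of all genes called, 10.6% lower and 11.8% higher, and in SUDHL6 19 fell and 0 rose, beside 16.3%, 7.94% lower and 8.4% higher. With the slide as a block 30 fell in SUDHL6. The median log2 fold change was -0.61 over the members in SUDHL2 and -0.32 in SUDHL6, with 0.01 and 0.00 over all genes. The labels give the not treated arrays no hour, so the solvent and the time in culture cannot be told apart. Of the markers of other cell types, in SUDHL2 the myeloid genes C1QB (0.68) and S100A8 (0.43) rose and the stromal gene DCN (-0.58) fell. In SUDHL6 none of the 12 tested was called. Among the tested B-cell markers, CD79A (0.51) and CD79B (0.52) rose in SUDHL2, and none was called in SUDHL6. The part of these markers in the results was not tested either. This comparison shares the DMSO arrays with OTX015 against DMSO, so the values of each are given side by side and no relation between them is drawn.

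In SUDHL2 E2F2 read 6.47, 6.38 and 6.12 on the DMSO arrays, against 8.13, 8.14 and 8.05 on the not treated arrays, 3.44-fold lower (log2 fold change -1.78 ± 0.19, adjusted p = 8.8e-10). CDC45 read 9.49, 9.61 and 9.32 on the DMSO arrays, against 10.93, 10.92 and 10.88 on the not treated arrays (log2 fold change -1.44 ± 0.15, adjusted p = 1.6e-09). TYMS read 8.97, 9.25 and 9.04 on the DMSO arrays, against 10.42, 10.38 and 10.57 on the not treated arrays (log2 fold change -1.37 ± 0.14, adjusted p = 4.2e-10). None of the groups overlapped. GINS2 read 9.06, 9.14 and 9.14 on the DMSO arrays, against 10.40, 10.52 and 10.20 on the not treated arrays (log2 fold change -1.26 ± 0.12, adjusted p = 2.9e-10), and PRIM1, the catalytic primase subunit, read 8.06, 8.02 and 8.16 on the DMSO arrays, against 9.26, 9.21 and 9.26 on the not treated arrays (log2 fold change -1.16 ± 0.13, adjusted p = 3.2e-09). All 6 MCM2-7 subunits and all 5 clamp and clamp loader genes fell, among them MCM2 (-0.86), MCM5 (-0.54) and PCNA (-0.78), as did POLE2 (-0.98), CDT1 (-0.51), MCM10 (-0.47), UHRF1 (-0.65), TK1 (-0.77) and LIG1 (-1.04 ± 0.21, adjusted p = 1.9e-04). RFC2 (-0.69) and RFC3 (-0.43) are uncertain, because another detected probe of each read 0.03 and 0.08. MCM10 (adjusted p = 0.048) lost its call without any 1 of the 6 arrays, and CDT1 read -0.44 (adjusted p = 0.089) without the DMSO array of experiment 3. The 13 that did not pass included GINS3 (-0.03), RRM2 (-0.54), SLBP (-0.20), CDC6 (0.10) and E2F1 (0.01).

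In SUDHL6 TK1 read 8.92, 8.26 and 8.99 on the DMSO arrays, against 9.68, 9.63 and 10.07 on the not treated arrays, 2.10-fold lower (log2 fold change -1.07 ± 0.16, adjusted p = 5.6e-06). DTL read 7.71, 7.40 and 7.83 on the DMSO arrays, against 8.43, 8.50 and 8.69 on the not treated arrays (log2 fold change -0.89 ± 0.19, adjusted p = 6.0e-04). POLD3 read 6.87, 6.90 and 7.20 on the DMSO arrays, against 7.64, 7.75 and 7.97 on the not treated arrays (log2 fold change -0.80 ± 0.17, adjusted p = 7.4e-04). LIG1 read 7.93, 8.25 and 8.69 on the DMSO arrays, against 8.83, 8.84 and 9.53 on the not treated arrays (log2 fold change -0.78 ± 0.21, adjusted p = 0.0067), and MCM2 read 8.81, 8.99 and 9.24 on the DMSO arrays, against 9.51, 9.79 and 9.77 on the not treated arrays (log2 fold change -0.68 ± 0.13, adjusted p = 2.1e-04). These 5 did not overlap between groups. LIG1 lost its call without the DMSO array of experiment 1 (-0.60, adjusted p = 0.079) or the not treated array of experiment 3 (-0.55, adjusted p = 0.091). TYMS (-0.65), CDC45 (-0.63), E2F2 (-0.61), POLE2 (-0.53), CDT1 (-0.48), MCM5 (-0.42) and PCNA (-0.34) fell by less, and each lost its call when some single array was left out, except TYMS and CDC45. RRM2 (-0.54), CDC6 (-0.15), MCM10 (-0.20), UHRF1 (-0.15), SLBP (-0.28) and E2F1 (0.08) did not pass. Without the DMSO array of experiment 2 10 members fell, and without that of experiment 3 24 did; without experiment 3 as a whole 19 fell and 1 rose.

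Set side by side, the 3 states of LIG1 in SUDHL2 were 8.12, 7.95 and 7.76 after 12 h of OTX015, 7.19, 6.92 and 6.90 after 12 h of DMSO and 8.08, 8.12 and 7.92 not treated, so that the DMSO arrays were the low ones. For POLE2 the OTX015 arrays were the low ones, at 7.87, 7.60 and 7.56, with DMSO at 8.49, 8.56 and 8.63 and not treated at 9.59, 9.51 and 9.52. The mean over all 48 genes was 8.61, 8.55 and 8.62 after 12 h of OTX015 in SUDHL2, 8.68, 8.69 and 8.63 after DMSO and 9.32, 9.26 and 9.29 not treated. In SUDHL6 it was 8.54 to 8.94 after OTX015, 8.97 to 9.30 after DMSO and 9.32 to 9.62 not treated, 3 ranges that did not overlap. OTX015 was not tested against the not treated arrays.

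At 1 and 2 h the DMSO arrays moved less. In SUDHL2 1 member was called at 1 h, lower, beside 5.92% of all genes, 2.5% lower and 3.42% higher. At 2 h 4 fell and 2 rose, beside 13.6%, 5.84% lower and 7.74% higher. UHRF1 at 1 h read 9.27, 9.46 and 9.39 on the DMSO arrays, against 10.05, 10.24 and 10.23 on the not treated arrays (log2 fold change -0.80 ± 0.21, adjusted p = 0.013), and at 2 h 9.14, 9.46 and 9.60 on the DMSO arrays, against 10.05, 10.24 and 10.23 on the not treated arrays (log2 fold change -0.78 ± 0.21, adjusted p = 0.0079). E2F2 at 2 h read 7.33, 7.54 and 7.64 on the DMSO arrays, against 8.13, 8.14 and 8.05 on the not treated arrays (log2 fold change -0.60 ± 0.19, adjusted p = 0.023). Both fell with no overlap at 2 h. The call of UHRF1 at 1 h was lost without the DMSO array of experiment 1 (-0.75, adjusted p = 0.068) or the not treated array of experiment 2 (-0.77, 0.061) or 3 (-0.77, 0.060). POLA1, the catalytic subunit of polymerase alpha, read 8.64, 8.69 and 9.08 on the DMSO arrays, against 9.30, 9.29 and 9.33 on the not treated arrays (log2 fold change -0.50 ± 0.13, adjusted p = 0.0075), and POLA2 read 9.87, 10.05 and 10.22 on the DMSO arrays, against 10.64, 10.38 and 10.52 on the not treated arrays (log2 fold change -0.46 ± 0.13, adjusted p = 0.011). GINS3 rose and read 8.15, 8.43 and 8.34 on the DMSO arrays, against 7.84, 7.90 and 7.85 on the not treated arrays (log2 fold change 0.45 ± 0.11, adjusted p = 0.0025), and RPA2 (0.33 ± 0.11, adjusted p = 0.042) rose too. Of the 6 called at 2 h, GINS3 alone kept its call whichever array was left out. Without the DMSO array of experiment 1, E2F2 read -0.51 (adjusted p = 0.097), UHRF1 -0.64 (0.055), POLA1 -0.42 (0.051) and POLA2 -0.38 (0.076), and without the DMSO array of experiment 3 RPA2 read 0.27 (0.17).

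In SUDHL6 0 were called at 1 h by limma (5 at an unadjusted p under 0.05), beside 1.74% of all genes. At 2 h 4 rose and 0 fell, beside 11.4%, 5.15% higher and 6.23% lower. E2F2 read 10.88, 11.03 and 11.05 on the DMSO arrays, against 10.01, 10.10 and 10.55 on the not treated arrays (log2 fold change 0.77 ± 0.19, adjusted p = 0.0033). PCNA read 12.05, 11.77 and 12.02 on the DMSO arrays, against 11.23, 11.29 and 11.55 on the not treated arrays (log2 fold change 0.59 ± 0.11, adjusted p = 2.1e-04). CDT1 read 9.65, 10.02 and 9.72 on the DMSO arrays, against 9.13, 9.22 and 9.37 on the not treated arrays (log2 fold change 0.56 ± 0.16, adjusted p = 0.017). All DMSO arrays were above all not treated arrays for these 3. CHAF1A read 7.54, 7.54 and 7.63 on the DMSO arrays, against 7.03, 7.29 and 7.23 on the not treated arrays (log2 fold change 0.39 ± 0.13, adjusted p = 0.049). On the OTX015 arrays at 2 h E2F2 was at 9.78, 10.09 and 10.07, CDT1 at 9.01, 9.04 and 8.84 and CHAF1A at 6.94, 7.03 and 7.05. CHAF1A lost its call without any 1 array, CDT1 without the DMSO array of experiment 2 (0.44, adjusted p = 0.12) or a not treated array of experiment 1 (0.50, 0.090) or 2 (0.55, 0.056), and PCNA when its probes were averaged (0.28, adjusted p = 0.17).

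The lines were also compared before treatment, where the members were called about as often as all genes. In not treated SUDHL2 against not treated SUDHL6, 14 members were lower and 10 higher, beside 51.4% of all genes called, 24.8% lower and 26.5% higher, with a median of -0.08 over the members that ran between -0.27 and 0.03 over the alternatives. With 75th percentile scaling 12 were lower and 11 higher, and the median of all genes itself shifted by -0.11. E2F2 read 8.13, 8.14 and 8.05 on the SUDHL2 arrays, against 10.01, 10.10 and 10.55 on the SUDHL6 arrays, 4.32-fold lower (log2 fold change -2.11 ± 0.19, adjusted p = 4.4e-13). GINS3 read 7.84, 7.90 and 7.85 on the SUDHL2 arrays, against 9.31, 9.14 and 9.33 on the SUDHL6 arrays (log2 fold change -1.40 ± 0.11, adjusted p = 4.7e-15). CDC45 ran the other way and read 10.93, 10.92 and 10.88 on the SUDHL2 arrays, against 9.54, 9.47 and 9.86 on the SUDHL6 arrays (log2 fold change 1.29 ± 0.15, adjusted p = 1.6e-09). GINS4 read 7.63, 7.11 and 7.04 on the SUDHL2 arrays, against 7.99, 8.77 and 8.79 on the SUDHL6 arrays (log2 fold change -1.26 ± 0.31, adjusted p = 6.8e-04), and TIPIN 9.12, 8.94 and 9.17 on the SUDHL2 arrays, against 8.07, 7.85 and 8.14 on the SUDHL6 arrays (log2 fold change 1.06 ± 0.15, adjusted p = 1.3e-07). In all 5 the groups were apart. Of the other named members MCM5 (-0.85), CDT1 (-0.68), E2F1 (-0.46) and LIG1 (-1.03) were lower in SUDHL2 and MCM2 (0.46) higher. E2F1 lost its call without the third experiment of SUDHL6 (-0.33, adjusted p = 0.17).

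In the panel of untreated lines the members tended to be high or low together. Each line has 1 array, so there is no replicate check. The mean correlation between pairs of members over the 22 lines was 0.33, and 0.29 without Karpas-422. Between pairs of all genes tested it was 0.0028. Quantile normalization gives every array the same distribution and so holds the value over all genes near 0. It is therefore no reference for a set of related genes, and the points share arrays, slides and normalization. By the median difference of the 48 genes from their panel medians the lowest lines were Karpas-422 (-0.72), OCI-Ly3 (-0.69), OCI-Ly10 (-0.49) and TMD8 (-0.35), and the highest OCI-Ly1 (0.46), SU-DHL-10 (0.35) and OCI-Ly19 (0.20). Karpas-422 held the lowest value of 19 members and OCI-Ly3 of 11, while OCI-Ly1 held the highest of 12. SU-DHL-2 stood at -0.12 and SU-DHL-6 at 0.07. The signals of the Karpas-422 array matched another array's processed column better (r = 0.903) than their own (0.882), so the label is in doubt. Whether the signals or the processed column carry the wrong label was not tested.

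E2F2 ranged furthest over the panel, over 4.12 log2 units, with the lowest level of 7.98 in OCI-Ly3, a median of 10.6 and the highest of 12.1 in OCI-Ly7. TK1 ranged over 3.56, lowest in RCK8 at 7.01 and highest in OCI-Ly1 at 10.6. The narrowest was the origin recognition subunit ORC6, with a range of 0.61. GINS2 followed the mean of the other members most closely (r = 0.90 over 22 lines), then PCNA (0.85) and CDC45 (0.83), and MCM5 (0.019) and PRIM2 (-0.18) did so least. Without Karpas-422 the closest were GINS2 (0.88), E2F2 (0.87) and PCNA (0.80), the least close MCM5 (-0.26) and GINS1 (-0.24), and RPA2 read 0.73 in place of 0.25. SU-DHL-2 repeated the low E2F2 of not treated SUDHL2, at 8.07 beside a mean of 8.11, and SU-DHL-6 that of SUDHL6, at 10.6 beside 10.2. Over the 48 genes the median absolute difference was 0.18 between not treated SUDHL2 and SU-DHL-2, the closest line, and 0.24 between SUDHL6 and SU-DHL-6, with WSUDLCL2 as close at 0.24.

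**Figure D5:**
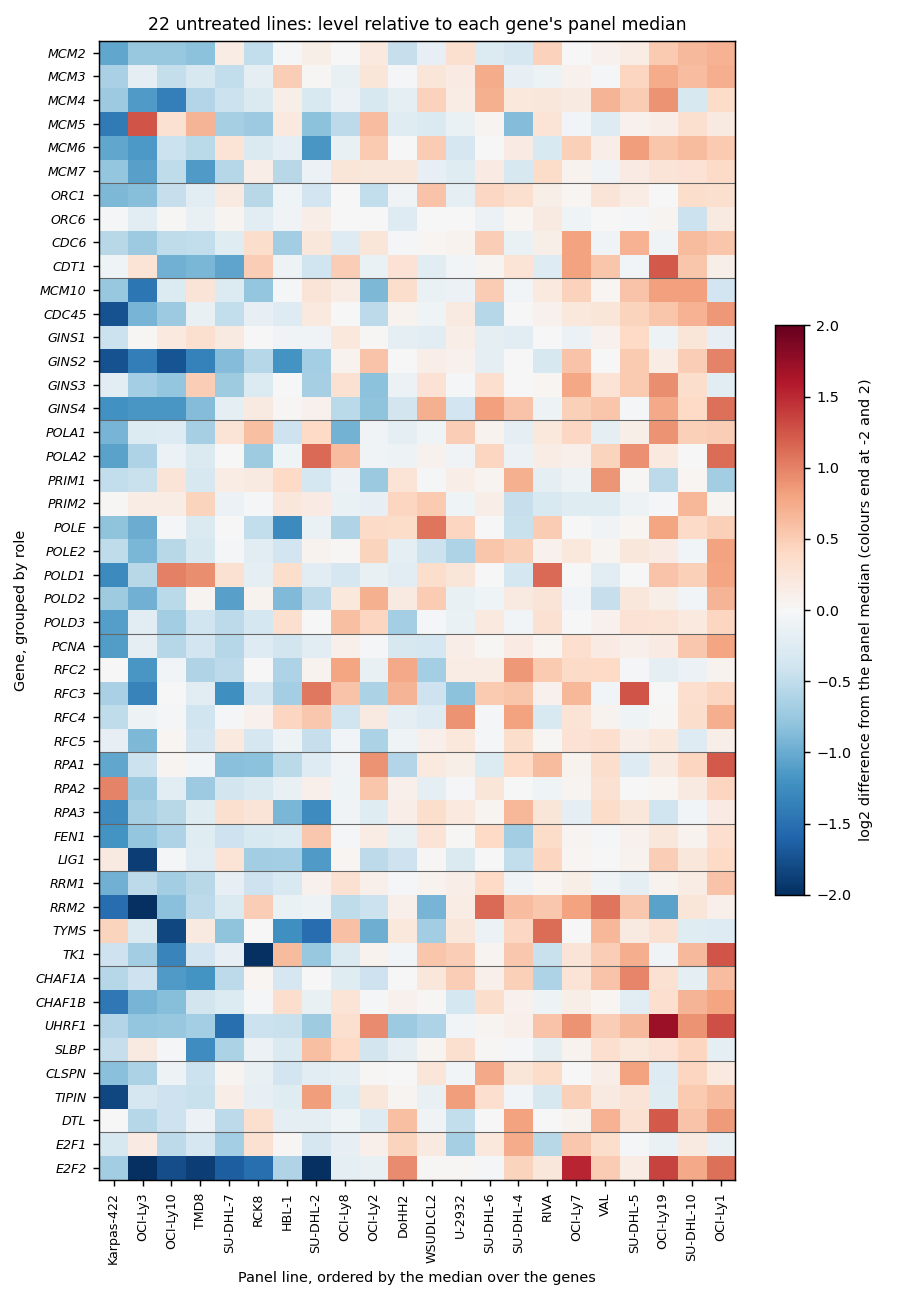
Difference of each of the 48 genes from its panel median (log2, red higher, blue lower, colours stop at 2 in either direction) in the 22 untreated lines, 1 array each, ordered by the median over the genes. Karpas-422 at -0.72 and OCI-Ly3 at -0.69 are at the low end and OCI-Ly1 at 0.46 at the high end.

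A further list of 56 genes of replication and of the E2F network that are not members, 51 of them tested, was counted at 12 h. In SUDHL2 10 fell and 8 rose after OTX015 against DMSO, with a median of -0.03, and in SUDHL6 9 fell and 0 rose, with a median of -0.06. These were 35.3% and 17.6% of the list, beside 33.3% and 26.2% of all genes. CDC25A, the phosphatase that releases the S-phase kinases, fell in both lines, (-1.14 ± 0.13, adjusted p = 3.1e-09) in SUDHL2 and (-1.17 ± 0.13, adjusted p = 3.2e-09) in SUDHL6. In SUDHL2 cyclin E1 (CCNE1, -0.89) and the polymerase epsilon subunit POLE3 (-0.85) fell, and TIMELESS (0.80), the partner of TIPIN, and the histone chaperone ASF1B (0.77) rose. In SUDHL6 the checkpoint kinases CHEK1 (-0.81) and WEE1 (-0.61) and the repressor E2F8 (-0.60) fell. After 12 h of DMSO against not treated, 26 fell and 3 rose in SUDHL2, and 17 fell and 2 rose in SUDHL6, beside 22.3% and 16.3% of all genes called. Those named are among the 5 of largest change past the threshold in each line.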

How the data were processed

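Total RNA of human lymphoma lines was measured on 64 Illumina single-channel arrays on 7 slides, the 42 time-course arrays on 4 of them. Per the labels' protocols RNA was extracted with the RNeasy kit, checked for integrity, and labelled with biotin using the Ambion TotalPrep kit. The authors deposited raw linear intensity values, without detection p-values, and a table of log2 values; the labels do not say how the log2 table was made. In the deposited log2 table every time-course column has a median of 6.64 and every panel column of 6.74, so its scale and centring differ between these sets; a single channel has no direction. The signals of 63 of 64 arrays matched their own processed column best. Of 47231 probes 30113 had 1 gene symbol in the platform annotation, 8 had several and 17110 had none.

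Background was removed by normexp with an offset of 16, followed by quantile normalization over 64 arrays and log2. The design had assumed detection p-values in the files; instead, a background distribution was made for each array by mirroring the part below its mode, and a gene was tested when its probe of highest mean signal had p under 0.01 on at least 3 of 42 arrays (34.3 to 44.3% of probes detected per time-course array). One model with a mean for each of the 14 groups was fitted (R 4.3.3, limma 3.58.1; lmFit, then eBayes with trend), and limma tested 18 contrasts, 2-sided, with Benjamini-Hochberg adjustment over 13700 genes at 0.05. The steps were tested on simulated data. No 2 arrays held identical values.

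The members and lists were chosen with earlier results of these data known. Genes named with all arrays are, for OTX015 against DMSO at 12 h, the 10 members of largest change among those called whose groups do not overlap. In other comparisons of 2 groups they are the 5 largest called. A fixed set is also named in each line at 12 h, in part by fold change alone. It is MCM2, MCM5, CDT1, CDC6, MCM10, CDC45, POLE2, PCNA, RRM2, TYMS, UHRF1, SLBP, E2F1 and E2F2. Other members are named only to account for each by role, or to show a difference, after their values were seen. Experiment numbers come from the titles. Deviations of same-numbered OTX015 and DMSO arrays from their group means correlated above 0.1 for every pair in SUDHL6 (0.12 to 0.43). They did not for every pair in SUDHL2 or between DMSO and not treated. Experiment 3 of SUDHL6 did so between DMSO and not treated (0.421, 0.284 and 0.225 at 1, 2 and 12 h). Since that experiment stands apart, experiments 1 and 2 deviate together from the group mean. The correlations therefore cannot show that arrays numbered 1 or 2 form pairs. Alternatives were no background correction, an offset of 50, 75th percentile scaling, the authors' values, no or a stricter filter, averaged probes, no trend, slide and replicate blocks, the third SUDHL6 experiment left out, and each array left out.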

Additional observations from a re-analysis of the deposited data

Results flagged for a closer look

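For 24 results the response to OTX015 differed between lines or between hours by limma's test of the difference itself. Between lines at 12 h (SUDHL2 minus SUDHL6, log2 units) the differences were 0.88 for MCM5, 0.74 for CDC45, 1.07 for GINS2, 0.65 for PRIM1, 0.72 for POLD1, 0.78 for RFC2, 0.87 for LIG1, 0.75 for TYMS and 0.68 for TK1. All 9 were above 0, and their adjusted p-values ran between 2.2e-05 for GINS2 and 0.045 for LIG1. With each array scaled to its 75th percentile, the call held for GINS2 and MCM5 and ended for the other 7. LIG1, TK1 and POLD1 were also lost without each of several single arrays, down to 0.67 for LIG1 without the SUDHL6 DMSO array of experiment 3 (adjusted p = 0.16), 0.51 for TK1 without the SUDHL2 OTX015 array of experiment 1 (0.17) and 0.61 for POLD1 without that SUDHL6 DMSO array (0.082), and CDC45 (0.54, adjusted p = 0.095) and RFC2 (0.57, 0.066) were lost without it too.

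Between 12 and 2 h in SUDHL2 the change of the response was -0.74 for MCM2, -0.88 for POLE2, -0.53 for POLD2, 0.55 for RFC5 and 0.83 for LIG1. The LIG1 and POLD2 calls were lost without most single arrays, POLD2 reading -0.37 (adjusted p = 0.19) without the OTX015 2 h array of experiment 3, and the RFC5 call under 75th percentile scaling (0.45, adjusted p = 0.12).

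In SUDHL6 it was -0.93 for MCM5, -0.73 for MCM10, -0.91 for CDC45, -0.55 for GINS2, -0.63 for GINS3, -0.79 for POLA1, -1.52 for POLE2, -0.70 for POLD2, -0.85 for RFC3 and -0.91 for UHRF1. All 10 were below 0. UHRF1 without the DMSO 12 h array of experiment 3 read -0.60 (adjusted p = 0.17), and MCM10 and GINS2 were likewise lost without several single arrays. Averaging the probes of a gene ended the calls of POLA1 (-0.48, adjusted p = 0.055) and RFC3 (-0.43, adjusted p = 0.075).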

How the results depend on the processing

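Over 6837 recalculations of a named gene's comparison, 6464 kept their call, 310 lost it, 63 gained one and 0 reversed. Without background correction, and on the authors' deposited values, 1 member was called for SUDHL2 OTX015 at 2 h in place of 2. For SUDHL6 OTX015 at 1 h, 1 was called in place of 0 on the authors' values, with the slide as a block, with the replicate block and without the third SUDHL6 experiment, an alternative added after seeing the data. The slide as a block gave 11 in place of 6 for SUDHL2 DMSO at 2 h, 1 in place of 0, 7 in place of 4 and 30 in place of 19 for SUDHL6 DMSO at 1, 2 and 12 h, and 8 in place of 5 for SUDHL2 between 12 and 2 h. The replicate block gave 5 in place of 1 and 12 in place of 6 for SUDHL2 DMSO at 1 and 2 h, 2 in place of 0 and 9 in place of 4 for SUDHL6 DMSO at 1 and 2 h, 15 in place of 9 for the difference between lines at 12 h, and 12 in place of 5 for SUDHL2 between 12 and 2 h; for SUDHL6 OTX015 at 12 h it gave 27 in place of 25. Scaling to the 75th percentile gave 3 in place of 1 for SUDHL2 DMSO at 1 h and 2 in place of 9 for the difference between lines, which was 14 without the third SUDHL6 experiment. Averaging probes gave 10 in place of 6 for SUDHL2 DMSO at 2 h. The causes were not tested.

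With single arrays left out, the counts for OTX015 in SUDHL2 were 0 to 0 at 1 h, 1 to 3 at 2 h and 18 to 21 at 12 h, and in SUDHL6 0 to 0, 3 to 4 and 17 to 28. For DMSO they were 0 to 1, 3 to 9 and 30 to 32 in SUDHL2 and 0 to 0, 2 to 6 and 10 to 24 in SUDHL6. For the difference between lines they were 0 to 0 at 1 h, 0 to 0 at 2 h and 4 to 15 at 12 h, between hours 3 to 6 in SUDHL2 and 7 to 12 in SUDHL6, and between the not treated lines 19 to 24. The lowest and highest came without the DMSO 2 h arrays of experiments 1 and 3 for the 3 to 9, and without the not treated arrays of experiments 1 and 3 for the 2 to 6.

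The number of arrays, 3 a group, limits the precision, and GINS1 (detected on 3 of 42 arrays) and CLSPN (22 of 42) are close to background. Within slides, at 12 h, the 23 SUDHL2 calls kept their sign on both slides that hold both treatments, and the 25 SUDHL6 calls kept it for 25 on one such slide and 24 on the other. These are the same arrays that gave the calls, so a kept sign is not an independent check.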

Other observations

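Genes close to DNA replication were counted at 12 h beside the 33.3% of all genes called in SUDHL2 (17.3% higher, 16.1% lower) and the 26.2% in SUDHL6 (13.6% higher, 12.7% lower). Of 28 genes of mitosis 9 rose and 0 fell in SUDHL2 after OTX015 against DMSO, with a median log2 fold change of 0.32, among them the spindle checkpoint kinase BUB1 (0.80 ± 0.13, adjusted p = 2.3e-06), BIRC5 (0.74), the securin PTTG1 (0.71), the anaphase activator CDC20 (0.68) and cyclin B2 (CCNB2, 0.60). In SUDHL6 5 rose and 1 fell, with a median of 0.13, and BUB1 read (0.57 ± 0.13, adjusted p = 5.1e-04) and BUB1B (-0.49 ± 0.16, adjusted p = 0.018). After 12 h of DMSO against not treated 22 of the 28 fell in SUDHL2 and 11 in SUDHL6, beside 10.6% and 7.94% of all genes called lower, with medians of -0.73 and -0.39.

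Of 9 tested genes among CDK inhibitors and G1 cyclins with their kinases, 3 rose and 2 fell in SUDHL2 and 4 rose and 3 fell in SUDHL6. The CDK4 and CDK6 inhibitor CDKN2D rose in both lines, (1.86 ± 0.13, adjusted p = 5.0e-15) in SUDHL2 and (1.38 ± 0.13, adjusted p = 3.4e-11) in SUDHL6, and its target kinase CDK6 fell in both, (-1.51 ± 0.12, adjusted p = 4.8e-13) and (-0.80 ± 0.12, adjusted p = 2.1e-06). CDKN2B was called higher in both as well (0.42 and 0.75). Of the other large changes CDKN1A (1.40) rose and CDK4 (-1.08) fell in SUDHL2, and CDKN1B (0.82) rose and cyclin D2 (CCND2, -0.96) fell in SUDHL6. A gene named here for 1 line may be called in the other too. The difference between lines, SUDHL2 minus SUDHL6, was called for CDKN1A (0.82, adjusted p = 0.025), CDK4 (-0.49, 0.027), CCND2 (1.01, 0.020) and CDK6 (-0.71, 0.0044). Of 9 tested genes of the MYC network, 3 rose and 2 fell in SUDHL2 and 3 rose and 1 fell in SUDHL6. MYC, whose product drives growth and cell cycle entry, fell in SUDHL2 (-3.46 ± 0.22, adjusted p = 4.4e-16) and did not pass in SUDHL6 (-0.50 ± 0.22, adjusted p = 0.093). The difference between the lines at 12 h, SUDHL2 minus SUDHL6, was called (-2.96 ± 0.31, adjusted p = 2.5e-09). Earlier, at 2 h, MYC was called lower in both lines, at -1.745 in SUDHL2 (adjusted p = 6.3e-07) and -1.21 in SUDHL6 (adjusted p = 1.7e-04). The difference between the lines was not called at 2 h (adjusted p = 0.77). At 1 h MYC was called lower in SUDHL6 (-1.35, adjusted p = 3.1e-04) and did not pass in SUDHL2 (-0.55, adjusted p = 0.98). After 12 h of DMSO against not treated MYC was higher in SUDHL2 (1.37 ± 0.22, adjusted p = 6.8e-06). In that line it was lower after 1 h of DMSO (-1.14, adjusted p = 7.8e-04) and after 2 h (-1.19, adjusted p = 1.5e-04). In SUDHL6 MYC was not called after DMSO at any of these hours (0.31, 0.24 and 0.49 at 1, 2 and 12 h). Those named are among the genes of largest change past the threshold.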
